A study of Mus musculus with 32 samples.

Results

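The genes described here store iron, carry it across membranes, release it from heme or sense it. They are 10 genes, namely Fth1, Ftl1, Slc40a1, Tfrc, Hmox1, Slc11a1, Slc11a2, Steap3, Ireb2 and Aco1, taken by symbol for their role in iron handling, and all 10 were found among the 18588 genes of the deposited table. Their signals were followed in microglia from rTg4510 mice, a mouse model of tau pathology, and from wild type (WT) animals.

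In rTg4510 mice a mutant human tau transgene sits behind a tetracycline-responsive element and is switched on by a transactivator under the CaMKIIα promoter, so that tau is made in forebrain neurons. The WT animals were littermates with neither transgene, and their strain is labelled 129/FVB F1. Microglia were taken from dissociated forebrains with CD11b MicroBeads from female mice of both genotypes aged 2, 4, 6 and 8 months, and each library came from the pooled forebrains of several animals. Of 32 libraries, 28 were used: each genotype had 4 libraries at 2 and 6 months but 3 at 4 and 8 months, since the authors had excluded 4 libraries after quality control. Replicates are therefore pools, and each p-value below measures the spread between pools.

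Cells keep iron in ferritin, a hollow shell built of heavy (Fth1) and light (Ftl1) chains, take it up with transferrin through the transferrin receptor (Tfrc), and export it through ferroportin (Slc40a1). In macrophages much of the iron comes from heme, which heme oxygenase 1 (Hmox1) breaks down. A pair of RNA-binding proteins, IRP1 (Aco1) and IRP2 (Ireb2), bind a stem-loop called the iron-responsive element when iron is scarce: bound in a 5′ UTR the element blocks translation, and bound in a 3′ UTR it stabilises the mRNA. The level of an mRNA is thus only a portion of the control of these proteins, and only mRNA was measured here.

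The iron-responsive elements are shown because they set the members apart from each other by the direction in which iron acts on them. The element was searched in GENCODE transcripts as the loop CAGTGN with a C on its 5′ side, 5 bases before the loop, and at least 4 of 5 base pairs in the upper stem. Counting matches in UTRs only, such a stem-loop was found in 5 of the 10 members, against 4.7% of 21899 protein-coding genes (1030 genes). Capitals mark the loop, and each stretch is 29 bases long, given 5′ to 3′ on the strand of the gene. The elements of the ferritin chains and of ferroportin lie in the 5′ UTR.
Fth1, 5′ UTR, chr19:9982732-9982760, plus strand: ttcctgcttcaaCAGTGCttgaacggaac
Ftl1, 5′ UTR, chr7:45459779-45459807, minus strand: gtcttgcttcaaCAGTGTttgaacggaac
Slc40a1, 5′ UTR, chr1:45925465-45925493, minus strand: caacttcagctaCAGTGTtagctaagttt
The matches in Tfrc, 4 in number, and in Slc11a2 lie in the 3′ UTR. The letters a to d only order the Tfrc matches along the gene. An element with another loop or spacing would not be matched, so 4 need not be all that Tfrc has.
Tfrc element a, chr16:32631219-32631247, plus strand: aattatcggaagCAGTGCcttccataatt
Tfrc element b, chr16:32631598-32631626, plus strand: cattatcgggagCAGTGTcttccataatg
Tfrc element c, chr16:32631663-32631691, plus strand: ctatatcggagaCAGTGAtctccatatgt
Tfrc element d, chr16:32631710-32631738, plus strand: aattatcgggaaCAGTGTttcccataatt
Slc11a2, chr15:100395153-100395181, minus strand: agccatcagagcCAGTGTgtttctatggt
The sequences are those of GENCODE M21 transcripts, and coordinates are of GRCm38, the build in the submitters' processing notes. All 5 of 5 upper stem positions were paired in each element but that of Slc11a2, where 4 of 5 were. No match lay in the annotated UTRs of Hmox1, Slc11a1, Steap3, Ireb2 and Aco1, which says only that these letters in this arrangement are not there. Slc11a1 had a match with 4 of 5 pairs inside its coding sequence, which was not counted.

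The table holds median-normalised log2 signals, with the same median of 5.63 in every library. A gene was called a differentially expressed gene (DEG) when its FDR, from a limma linear model over the 8 groups of genotype and age and adjusted over 18588 genes, was under 0.05 and its change exceeded 1.5 fold. Signals are not scaled to transcript length, so a rank, sum or difference between genes below describes signal in the table and not the abundance of transcripts.

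Among the members, 1 rose at 2 months (Fth1) and 0 fell, against a background of 1.58% of all genes called higher and 0.403% called lower. Before adjustment 4 of 10 had p under 0.05, against 3069 of 18588 genes. With moderated variance limma gave the same counts of members called. Of the DEGs of all genes at that age 79.6% were higher, and 68.3% with quantile normalisation. At 4 months 3 rose (Fth1, Ftl1 and Slc11a1) and 1 fell (Slc40a1), where 9.47% of all genes were higher and 4.33% lower. At 6 months 5 rose, Hmox1 and Steap3 having joined, and Slc40a1 fell, against 11.3% and 8.54% of all genes. By 8 months 6 rose, now with Slc11a2, and again Slc40a1 alone fell, against 10.5% and 5.37%. Tfrc, Ireb2 and Aco1 were called at no age. The median log2 fold change over the 10 members went from 0.12 at 2 months through 0.41 and 0.53 to 0.79 at 8 months, while that of all genes stayed between -0.04 and 0.01.

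**Figure D1:**
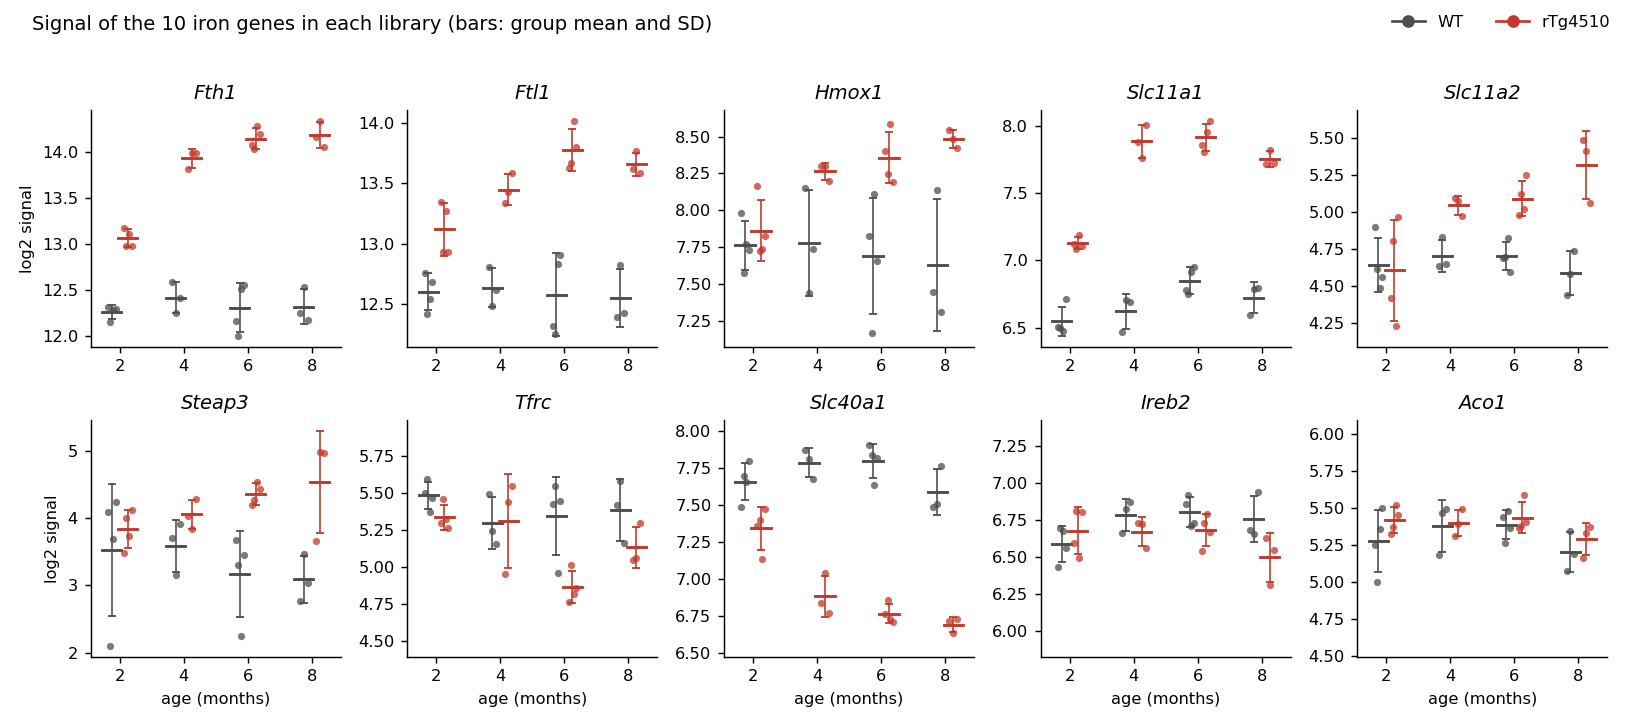
Log2 signal (vertical axis) of each of the 10 iron genes against age in months in 28 libraries, with WT in grey and rTg4510 in red; each point is a library, long bars are group means and whiskers are SDs. Fth1, Ftl1 and Slc11a1 lie above WT and Slc40a1 below at all 4 ages, Hmox1 and Slc11a2 lie above WT from 4 months on, and Tfrc, Ireb2 and Aco1 overlap over most ages; the vertical scale differs between genes.

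The ferritin heavy chain rose at every age. Fth1 encodes the chain with the ferroxidase site, which oxidises iron before it is stored. At 2 months its log2 signal was 12.32, 12.15, 12.29 and 12.30 in WT and 13.18, 12.98, 13.11 and 12.99 in rTg4510. At 4 months it was 12.59, 12.26 and 12.42 in WT and 13.82, 13.99 and 14.00 in rTg4510. Every rTg4510 library lay above every WT library at both ages. At 6 months Fth1 measured 12.17, 12.005, 12.51 and 12.56 in WT and 14.08, 14.04, 14.29 and 14.20 in rTg4510, and at 8 months 12.26, 12.54 and 12.18 in WT against 14.17, 14.34 and 14.06 in rTg4510. The groups did not overlap at any age. The log2 fold change was 0.80 ± 0.11 (SE) at 2 months (1.74 fold, limma FDR 0.000122), 1.51 ± 0.13 at 4 months (2.86 fold, FDR 1.66e-08), 1.84 ± 0.11 at 6 months (3.58 fold, FDR 5.65e-11) and 1.87 ± 0.13 at 8 months (3.65 fold, FDR 7.6e-10). By signal Fth1 ranked between 34 and 146 from the top of each library, and with quantile normalisation the Fth1 changes were 0.56, 1.11, 1.29 and 1.37 at the 4 ages, which ended the call at 2 months by size (FDR 3.75e-05). In bulk RNA, a shift in the number of cells of a type and a shift in the RNA of each cell cannot be told apart, here and in all results that follow.

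The light chain Ftl1, which helps iron to form its core inside the shell, also rose, as a DEG from 4 months on. Its log2 signal at 2 months was 12.76, 12.42, 12.55 and 12.68 in WT and 13.34, 12.93, 13.27 and 12.93 in rTg4510. At 4 months it was 12.81, 12.49 and 12.62 in WT and 13.33, 13.43 and 13.58 in rTg4510. Again no rTg4510 library fell inside the WT range of its age. At 6 months the WT libraries stood at 12.32, 12.26, 12.84 and 12.91 and the rTg4510 libraries at 13.63, 13.66, 14.01 and 13.80; at 8 months the values were 12.40, 12.82 and 12.43 against 13.62, 13.77 and 13.58. The groups stayed apart. Log2 fold changes were 0.52 ± 0.15 at 2 months (limma FDR 0.0394, 1.43 fold and so no DEG), 0.81 ± 0.17 at 4 months (FDR 0.00116), 1.195 ± 0.15 at 6 months (FDR 1.41e-06) and 1.11 ± 0.17 at 8 months (FDR 3.32e-05). Quantile normalisation lowered these to 0.31, 0.39, 0.70 and 0.67, each by more than 1.5 times, and ended the call at 4 months.

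The heavy and light chains were also compared with each other. The log2 signal of Fth1 minus that of Ftl1, taken within each library, was -0.34 ± 0.09 (SD, n = 4) in WT and -0.05 ± 0.12 in rTg4510 at 2 months, -0.22 ± 0.02 and 0.49 ± 0.07 (n = 3 each) at 4 months, -0.27 ± 0.09 and 0.38 ± 0.08 at 6 months, and -0.23 ± 0.08 and 0.53 ± 0.05 at 8 months. All rTg4510 libraries were above all WT libraries at each age. The two-sided exact permutation test gave p = 0.0286 at 2 and at 6 months and p = 0.1 at 4 and 8 months, in each case the smallest that these group sizes allow, and 0.0571 and 0.1 after Benjamini-Hochberg adjustment over the 4 ages. The WT differences stayed within a narrow range over the ages, and the rTg4510 differences were larger from 4 months on than at 2 months.

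Ftl1 cannot be measured apart from its copies in these data. Mouse chromosomes hold many processed pseudogenes of the ferritin chains. Of the words of 100 bases in the Ftl1 transcript 78.6% (683 of 869) also occur in other annotated genes' transcripts, among them Ftl1-ps1 and Ftl2-ps. The share held by each of these genes was not computed. In the Fth1 transcript the share was 0.964% (8 of 830), all in Gm6977, and it was 0 in the transcripts of the other 8 members. How reads with several matches were assigned is not given in the sources used here. The table has 14 pseudogenes of ferritin chains by RefSeq type, 11 similar to Ftl1 and 3 to Fth1. Ftl1-ps1, 1 of the 11, is typed as protein coding in GENCODE. Those 11 held between 87.4% and 88.3% of the summed linear signal of Ftl1 and its copies in every library of both genotypes.

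By mean signal the 3 highest copies were Ftl1-ps1, Ftl2-ps and Gm12164. Ftl1-ps1, 99.6% identical to Ftl1 over 910 aligned bases, was at 14.76 ± 0.26 (n = 3) in WT and 15.91 ± 0.12 (n = 3) in rTg4510 at 8 months, a log2 fold change of 1.15 ± 0.18 (limma FDR 3.04e-05). Ftl2-ps changed by 1.15 ± 0.18 as well (FDR 3.64e-05), and Gm12164 by 0.78 ± 0.16 (FDR 0.000626). The sum of Ftl1 and its copies was higher in rTg4510 by 0.53, 0.83, 1.203 and 1.13 on the log2 scale at 2, 4, 6 and 8 months, close to the values of Ftl1 alone. For Fth1 and its copies the sums differed by 0.74, 1.43, 1.74 and 1.78, and the copies made up at most 12.1% of the summed signal of a library. Over the 14 copies 0, 4, 5 and 4 rose at the 4 ages, against 1.58%, 9.47%, 11.3% and 10.5% of all genes, and none fell at any of them. Of these copies 5 of 14 had an unadjusted p under 0.05 at 2 months, against 3069 of 18588 genes. Moderated variance called 0 copies there as well. Quantile normalisation left 0, 3, 4 and 3 called higher, and 0 lower; Gm12164 at 6 and 8 months (0.39 and 0.35) and Ftl2-ps at 4 months (0.46) were no longer called.

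**Figure D2:**
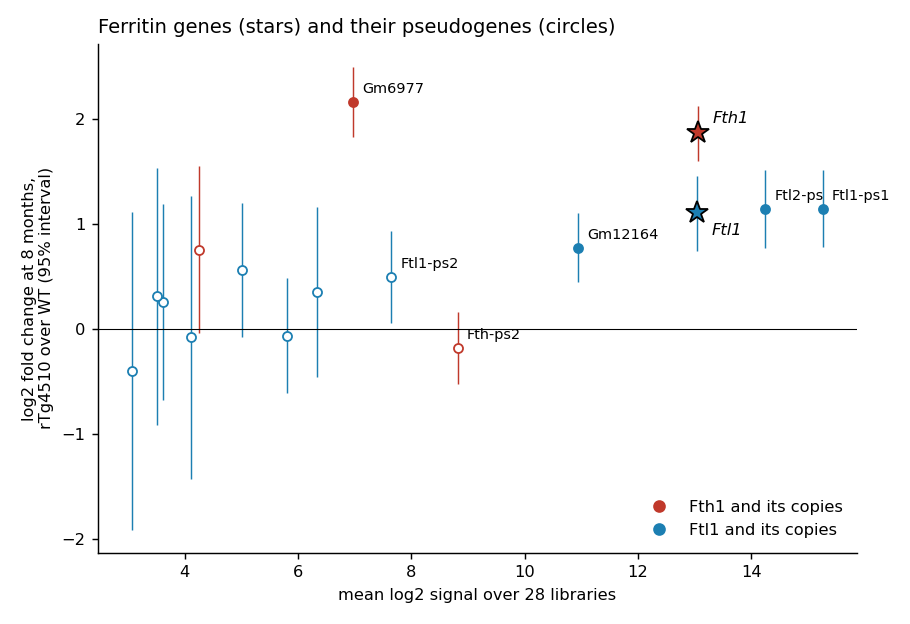
Log2 fold change of rTg4510 over WT at 8 months (vertical axis, with 95% intervals) against the mean log2 signal over 28 libraries (horizontal axis) for Fth1 and Ftl1 (stars) and 14 pseudogenes by RefSeq type (circles), with DEGs filled. Ftl1-ps1 and Ftl2-ps have higher signals than Ftl1 and nearly its fold change, and Fth-ps2 lies close to 0 at -0.18.

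Ferroportin fell. Slc40a1, the only known exporter of iron from vertebrate cells, had log2 signals of 7.49, 7.69, 7.66 and 7.80 in WT and 7.36, 7.40, 7.14 and 7.47 in rTg4510 at 2 months. At 4 months the values were 7.87, 7.81 and 7.68 in WT and 6.84, 7.04 and 6.77 in rTg4510. The rTg4510 libraries were below the WT libraries at both ages, by a narrow margin at 2 months. At 6 months Slc40a1 stood at 7.90, 7.84, 7.64 and 7.82 in WT and 6.77, 6.86, 6.73 and 6.71 in rTg4510, and at 8 months at 7.49, 7.51 and 7.77 in WT and 6.71, 6.64 and 6.73 in rTg4510. No rTg4510 library from 4 months on reached the lowest WT library of any age. The log2 fold change was -0.32 ± 0.08 at 2 months (limma FDR 0.0234, no DEG by size), -0.90 ± 0.10 at 4 months (FDR 3.26e-07), -1.03 ± 0.08 at 6 months (FDR 2.9e-09) and -0.90 ± 0.10 at 8 months (FDR 2.85e-07). The 7 markers of border macrophages, cells rich in Slc40a1, had median log2 fold changes of -0.52, -0.32 and -0.19 at 4, 6 and 8 months. Lyve1 was a DEG at 6 months (-0.84, limma FDR 0.00542), and no marker was at 4 or 8 months. At 4 months 1 marker was called lower with quantile normalisation, and 1 with all 32 libraries. The part of these cells in the fall of Slc40a1 was not tested. Quantile normalisation of Slc40a1 gave -0.35, -0.93, -1.09 and -0.95.

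Hmox1 opens the heme ring and sets iron free, and it is a known target of the stress factor NRF2. Its log2 signal was 7.98, 7.58, 7.77 and 7.73 in WT and 8.17, 7.72, 7.74 and 7.83 in rTg4510 at 2 months, where the groups overlapped. At 4 months it was 8.15, 7.44 and 7.74 in WT and 8.30, 8.30 and 8.20 in rTg4510. The rTg4510 libraries lay above the WT range, which was wide. At 6 months the WT libraries were at 7.83, 7.17, 8.11 and 7.66 and the rTg4510 libraries at 8.41, 8.25, 8.58 and 8.19; at 8 months they were at 7.45, 8.14 and 7.31 against 8.54, 8.49 and 8.42. WT libraries spread more (SD 0.36 to 0.44 at 4 to 8 months) than rTg4510 libraries (SD 0.06 to 0.18). Log2 fold changes were 0.10 ± 0.19 at 2 months (limma FDR 0.882), 0.49 ± 0.22 at 4 months (FDR 0.12), 0.67 ± 0.19 at 6 months (FDR 0.00917) and 0.85 ± 0.22 at 8 months (FDR 0.00565). With the spread taken only from the groups compared, the FDR of Hmox1 was 0.0679 at 6 months and 0.129 at 8 months, so both calls rest on the spread shared over the 8 groups. At 6 months the call also ended with quantile normalisation (0.56) and without WT replicate 2 (0.49), and at 4 months Hmox1 became a DEG without WT replicate 1 (0.675, FDR 0.045).

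Of the pair of metal transporters that move divalent iron with protons, Slc11a1 (NRAMP1) sits in the phagosome membrane of macrophages and Slc11a2 (DMT1) in the endosome and plasma membrane. Slc11a1 was at 6.51, 6.498, 6.47 and 6.71 in WT and 7.12, 7.09, 7.19 and 7.11 in rTg4510 at 2 months. At 4 months it was at 6.47, 6.70 and 6.69 in WT and 7.88, 7.76 and 8.01 in rTg4510. Both ages showed a clear gap between the groups. At 6 months Slc11a1 measured 6.78, 6.75, 6.91 and 6.95 in WT and 7.86, 7.81, 7.95 and 8.04 in rTg4510, and at 8 months 6.59, 6.79 and 6.79 against 7.71, 7.82 and 7.72. The gap remained. Log2 fold changes were 0.58 ± 0.07 at 2 months (limma FDR 3.81e-05, 1.49 fold and so just short of a DEG), 1.26 ± 0.08 at 4 months (FDR 4.04e-10), 1.07 ± 0.07 at 6 months (FDR 2.01e-10) and 1.03 ± 0.08 at 8 months (FDR 5.86e-09). Leaving out rTg4510 replicate 2, rTg4510 replicate 4 or WT replicate 4 of the 2-month group made Slc11a1 a DEG at 2 months too, and the count of members called there 2 in place of 1.

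Slc11a2 moved later. At 2 months its log2 signal was 4.90, 4.62, 4.49 and 4.56 in WT and 4.42, 4.81, 4.23 and 4.97 in rTg4510, with the rTg4510 values on either side of the WT values. At 4 months it was 4.63, 4.83 and 4.65 in WT and 5.09, 5.08 and 4.97 in rTg4510. At 6 months it was 4.69, 4.70, 4.83 and 4.596 against 4.98, 5.12, 5.02 and 5.25. At both ages the rTg4510 libraries were higher without overlap. At 8 months the WT libraries were at 4.44, 4.58 and 4.74 and the rTg4510 libraries at 5.49, 5.41 and 5.06. The log2 fold change was -0.04 ± 0.13 at 2 months (limma FDR 0.947), 0.34 ± 0.15 at 4 months (FDR 0.119), 0.39 ± 0.13 at 6 months (FDR 0.027, 1.31 fold) and 0.73 ± 0.15 at 8 months (FDR 0.000927, 1.66 fold). With the spread from the 8-month libraries alone the FDR of Slc11a2 was 0.0627.

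Steap3 reduces ferric iron in endosomes so that it can be carried out. Its signal lay close to the lowest values of the table in several WT libraries, with 3.68, 3.31, 2.25 and 3.45 in WT and 4.19, 4.27, 4.54 and 4.44 in rTg4510 at 6 months. At 8 months it was at 2.77, 3.47 and 3.03 in WT and 3.66, 4.98 and 4.97 in rTg4510. The groups did not overlap at these ages, though rTg4510 replicate 1 at 8 months lay near the highest WT library. Changes were 1.19 ± 0.39 at 6 months (limma FDR 0.024) and 1.44 ± 0.46 at 8 months (FDR 0.0229). At 2 and 4 months Steap3 lay between 2.10 and 4.25 in WT and between 3.48 and 4.28 in rTg4510, with overlap, and differed by 0.31 ± 0.39 (FDR 0.801) and 0.47 ± 0.46 (FDR 0.512). The 8-month call ended without rTg4510 replicate 2 (FDR 0.105), rTg4510 replicate 3 (0.0938), WT replicate 1 (0.0845) or WT replicate 3 (0.0598) of that age, and with the spread from the 8-month groups alone (0.155). The 6-month call ended without rTg4510 replicate 3 (0.0575) or WT replicate 3 (0.0982).

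Tfrc, the gate for transferrin-bound iron, did not pass the DEG rule at any age. Its log2 signal at 6 months was 5.42, 5.55, 4.95 and 5.44 in WT and 4.76, 5.01, 4.81 and 4.86 in rTg4510, a difference of -0.48 ± 0.13 (limma FDR 0.00677, 1.39 fold). WT replicate 3 lay inside the rTg4510 range, and without it the difference was -0.61 (FDR 0.000569) and passed. At the other ages Tfrc lay between 5.15 and 5.59 in WT and between 4.95 and 5.54 in rTg4510, with overlap, and the differences were -0.15 ± 0.13 at 2 months (95% interval -0.42 to 0.12), 0.01 ± 0.15 at 4 months (-0.30 to 0.33) and -0.25 ± 0.15 at 8 months (-0.57 to 0.06).

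The sensors were close in both genotypes. Ireb2 lay between 6.43 and 6.94 in the 14 WT libraries, with a median of 6.70, and between 6.31 and 6.81 in the 14 rTg4510 libraries. The largest difference was -0.26 ± 0.10 at 8 months (95% interval -0.48 to -0.04, limma FDR 0.0746), where 6.63, 6.31 and 6.55 in rTg4510 were below 6.68, 6.65 and 6.94 in WT. Aco1, whose product is a cytosolic aconitase when it holds an iron-sulfur cluster, lay between 4.998 and 5.498 in WT, with a median of 5.35, and between 5.16 and 5.59 in rTg4510. Aco1 differed by 0.14 at 2 months (95% interval -0.05 to 0.34), 0.02 at 4 months (-0.21 to 0.25), 0.05 at 6 months (-0.15 to 0.24) and 0.09 at 8 months (-0.14 to 0.31), so a change of Aco1 beyond 1.5 fold lay outside the interval at each age.

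**Figure D3:**
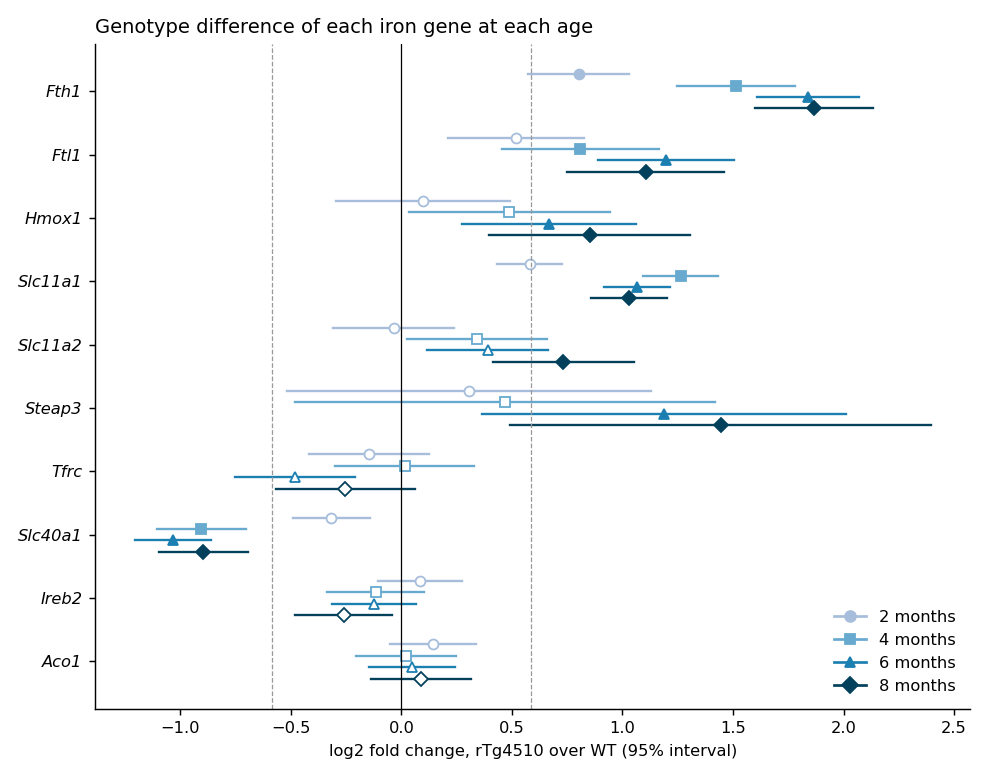
Log2 fold change of rTg4510 over WT (horizontal axis) for each iron gene at 2, 4, 6 and 8 months, with 95% intervals from the linear model; filled symbols are DEGs, open symbols are not, and dashed lines mark 1.5 fold. Fth1 reaches 1.87 and Slc40a1 -1.03, and the intervals of Aco1 stay between the dashed lines at every age.

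The libraries of rTg4510 and WT did not overlap for 4 members at 2 months, 6 at 4 months, 7 at 6 months and 8 at 8 months. Among all genes 11% did not overlap at 2 months, 36.6% at 4 months, 32.8% at 6 months and 36.7% at 8 months. Taken over the ages, all 10 kept rTg4510 libraries from 4 months on lay above all 14 kept WT libraries for Fth1, Ftl1, Hmox1, Slc11a1 and Slc11a2, and below them for Slc40a1. The share of all genes set apart in this way was not computed, and the shares at single ages do not stand in for it.

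The genotype effect was compared between neighbouring ages in the same model. From 2 to 4 months it grew for Fth1 by 0.71 ± 0.17 (limma FDR 0.0119), for Slc11a1 by 0.68 ± 0.11 (FDR 0.000407) and, downward, for Slc40a1 by -0.59 ± 0.13 (FDR 0.00616), so that 3 of 10 members passed, against 4.66% of all genes. The Slc40a1 value is 1.502 fold and lies at the threshold of size. With all 32 libraries Fth1 had a larger value but no call (0.90, FDR 0.0709) and Slc11a1 a smaller one (0.44, FDR 0.158), leaving 1 member. Quantile normalisation gave 0.54 for Fth1, short of the threshold of size (FDR 0.00262). From 4 to 6 months 0 members passed by limma, with unmoderated or moderated variance, against 0.156% of all genes passing. Of the members 1 (Tfrc) had an unadjusted p under 0.05, against 1514 of 18588 genes. From 6 to 8 months 0 members passed with either variance, against 0% of all genes passing. Of the members 0 had an unadjusted p under 0.05 there, against 841 of 18588 genes. Neighbouring contrasts share the libraries of an age.

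In WT mice no member passed between 8 and 2 months by limma with either variance, and 1.27% of all genes passed. Of the members 1 had an unadjusted p under 0.05, against 3561 of 18588 genes. Between the same ages in rTg4510 mice 4 members rose and 1 fell, where 10.5% of all genes passed. Fth1 rose by 1.12 ± 0.12 (limma FDR 5.6e-07), Slc11a2 by 0.71 ± 0.14 (FDR 0.000882), Slc11a1 by 0.63 ± 0.08 (FDR 3.81e-06) and Hmox1 by 0.62 ± 0.20 (FDR 0.0341), and Slc40a1 fell by 0.65 (SE 0.09, FDR 1.73e-05). Ftl1 changed by 0.54 ± 0.16 (FDR 0.0191, 1.45 fold) and was not called. The Hmox1 value lost its call without any 1 of 6 rTg4510 libraries of 2 or 8 months, with FDR from 0.0616 to 0.101, and with the replicate number as a block it was 0.59 (FDR 0.0881), while Slc11a2 had an FDR of 0.116 with the spread of the rTg4510 groups of 2 and 8 months alone.

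Across the 28 libraries the ferritin chains had Pearson r = 0.97 with each other, and 0.93 after the group means were taken away. Fth1 had r = 0.96 with Slc11a1 and -0.96 with Slc40a1, which dropped to 0.35 and -0.38 without the group means. Hmox1 kept r = 0.73 with Fth1 and 0.67 with Ftl1 within groups. These are descriptions over libraries that share a normalisation and, in part, genotype and age.

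The genes most like each member over the 28 libraries were found in the same way. For Fth1 they were Fam20c, a kinase of secreted proteins (r = 0.989), Npc2, which carries cholesterol out of lysosomes (0.988), and Ctsl, the lysosomal protease cathepsin L (0.988). For Slc11a1 they were the tetraspanin Cd9 (0.984), the integrin Itgax (0.982) and cathepsin E, Ctse (0.979). Ftl1 was most like its copies Ftl1-ps1 (0.999) and Ftl2-ps (0.998) and a row known only by the Entrez ID 100862446 (0.983). Slc40a1 was most like Plxna4 (0.972), Chd9 (0.971) and Gm3636 (0.970). Hmox1 was most like the row of Entrez ID 100504452 (0.922), the prostaglandin receptor Ptger4 (0.908) and Crip1 (0.896), and Steap3 like Eno2 (0.789), Pkp4 (0.751) and Gm9826 (0.747).

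The antioxidant response element, to which NRF2 binds, was searched as its core TGACNNNGC on both strands in RefSeq promoter windows of GRCm38 from 250 bases before to 50 bases after the start of a gene. The windows matched by symbol were 12 from 7 members (Fth1, Ftl1, Tfrc, Slc11a1, Steap3, Ireb2 and Aco1), and the core was in 0 of these 12, against 12.4% of all 32851 windows. Hmox1, Slc40a1 and Slc11a2 had no entry. No match says only that these letters are not in these windows.

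Other genes of the iron and heme pathways were counted in the same way. Of 61 further genes in 7 lists 53 were measured, and at 2 months 0 of 53 were DEGs by limma with either variance, with 12 at an unadjusted p under 0.05, against 3069 of 18588 genes. At 4 months 3 of 53 rose and 1 fell, where 9.47% of all genes rose and 4.33% fell. At 6 months 5 rose and 4 fell, against 11.3% and 8.54%, and at 8 months 4 rose and 2 fell, against 10.5% and 5.37%. With quantile normalisation 2 rose and 2 fell at 4 months, 2 and 3 at 6 months, and 2 and 3 at 8 months. The median log2 fold change of the 53 genes was -0.02, -0.09, 0.02 and 0.05 at the 4 ages, against 0.01, -0.04, -0.04 and -0.01 over all genes. Lcn2 and Cd163 of these lists are also markers of other cells, neutrophils and border macrophages.

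Among the sensing and transcription genes Hif1a, the oxygen-regulated factor, was at 8.09 ± 0.11 in WT and 9.51 ± 0.11 in rTg4510 at 4 months (1.42 ± 0.08, limma FDR 7.64e-11), and it was higher by 1.57 ± 0.07 at 6 months and 1.49 ± 0.08 at 8 months. Nfe2l2, which encodes NRF2, was at 10.05 ± 0.11 in WT and 10.81 ± 0.12 in rTg4510 at 8 months (0.76 ± 0.07, FDR 4.17e-08); quantile normalisation gave 0.40, which is no DEG. Counts for this list of 5 were 0, 1, 2 and 2 higher and 0 lower at the 4 ages.

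Of the 11 uptake genes measured, 0, 1, 2 and 1 rose and 0, 0, 2 and 0 fell. Trf, the transferrin that carries iron between cells, rose by 0.76 ± 0.06 at 4 months (limma FDR 4.97e-09), 0.72 ± 0.05 at 6 months (FDR 4.19e-10) and 0.66 ± 0.06 at 8 months (FDR 2.36e-08), with 0.49, 0.44 and 0.38 and no call under quantile normalisation. At 6 months Steap2, a metalloreductase, changed by -2.11 ± 0.66 (FDR 0.0166), with group means of 4.75 in WT and 2.65 in rTg4510. The rTg4510 mean of Steap2 was close to the lowest values of the libraries, which ranged from 1.23 to 1.92. At 4 and 8 months Steap2 changed by -0.36 and -0.11, with no call. Lcn2, a siderophore-binding protein, changed by -2.08 ± 0.41 at 6 months (FDR 0.00044), with group means of 6.95 in WT and 4.87 in rTg4510.

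For export and systemic control 4 genes were measured, none rose, and 1 fell at 6 months and 1 at 8 months. Bmp6, which drives hepcidin in the liver, changed by -1.25 ± 0.46 at 6 months (limma FDR 0.0407), with overlapping groups and -0.89 and no call under quantile normalisation; it was not called with all 32 libraries either. Neo1, a co-receptor of that pathway, changed by -0.60 ± 0.13 at 8 months (FDR 0.00197) and was not called with all 32 libraries. In the list for mitochondrial iron and iron-sulfur clusters (10 measured) Slc25a37, mitoferrin 1, which imports iron into mitochondria, changed by -0.77 ± 0.10 at 4 months (FDR 5.19e-06), -0.93 ± 0.09 at 6 months (FDR 2.6e-08) and -0.99 ± 0.10 at 8 months (FDR 1.52e-07), and Abcb8, a mitochondrial transporter, by 0.62 ± 0.14 at 4 months (FDR 0.00278), with no call in all 32 libraries.

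Alas1, the first enzyme of heme synthesis, was at 6.79 ± 0.07 in WT and 7.46 ± 0.11 in rTg4510 at 8 months (0.66 ± 0.08, limma FDR 9.16e-07); of the 10 genes of that list 0, 0, 1 and 1 rose and none fell at any age. None of the 10 measured genes of heme uptake, transport and breakdown other than Hmox1, and none of the 3 measured genes of storage and release from ferritin, was called at any age. Their median log2 fold changes at 8 months were 0.11 and -0.03.

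**Figure D4:**
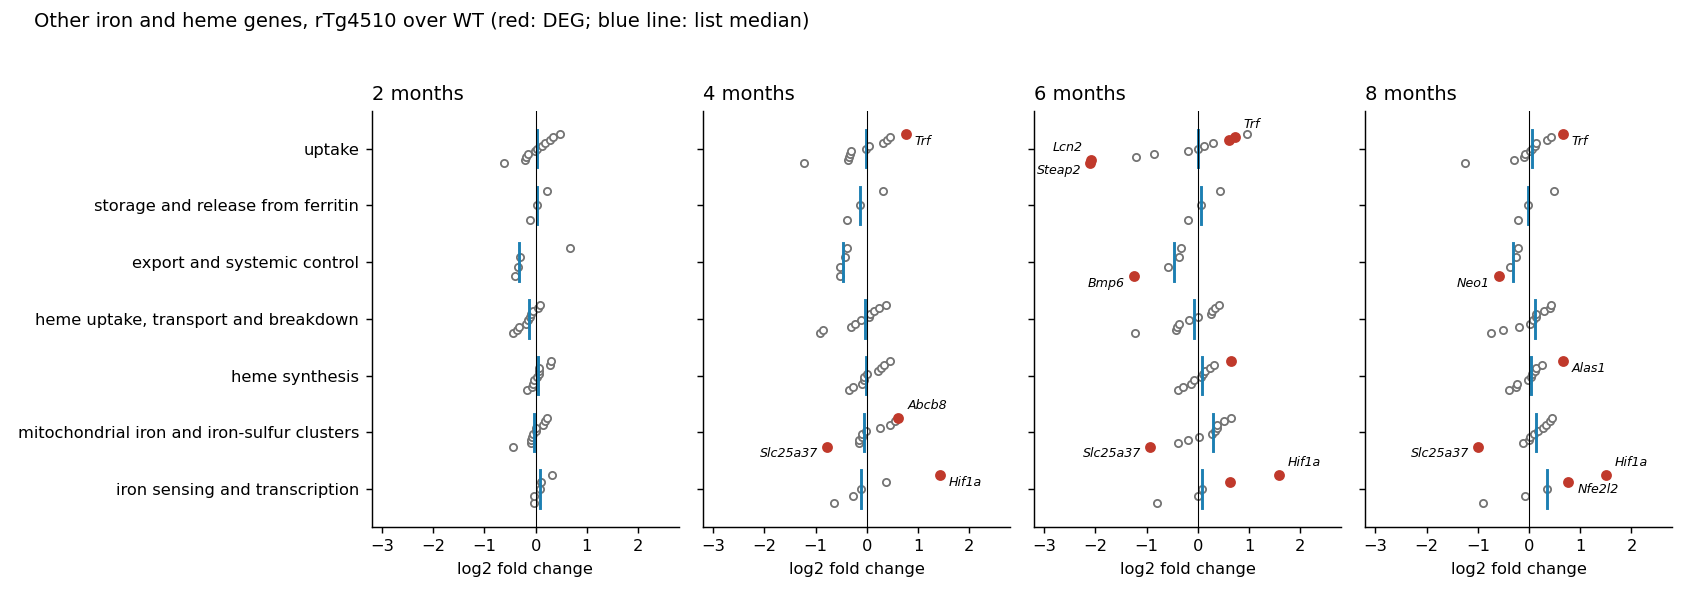
Log2 fold change of rTg4510 over WT (horizontal axis) for 53 other iron and heme genes in 7 lists at each age; each circle is a gene, red circles are DEGs, the blue line is the median of a list, and up to 6 DEGs of an age are named. Most genes lie near 0, with Hif1a at 1.49 and Slc25a37 at -0.99 at 8 months.

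Markers of other cells moved with genotype too. None of the 7 microglial markers lay near the lowest values in any group, and the log2 of their summed linear signal was 14.7 to 15.1 in WT and 14.4 to 14.9 in rTg4510 libraries. Tmem119 fell at 4, 6 and 8 months and Itgam at 6 months. With quantile normalisation 3, 5 and 5 of the 7 fell at 4, 6 and 8 months, with median log2 fold changes of -0.57, -0.71 and -0.73. Neutrophil markers fell in 8 of 8 genes at 6 months and 5 of 8 at 8 months, with summed signals of 9.07 to 10.5 in WT and 7.46 to 10.5 in rTg4510; Elane at 4 and 6 months and Mpo at 6 months were near the lowest values in rTg4510. Border macrophages are rich in Hmox1 and Slc40a1, and 1 of 7 of their markers (Lyve1, at 6 months) passed the rule at any age, downward. The median log2 fold change of the 7 was -0.27, -0.52, -0.32 and -0.19 at the 4 ages. At 4 months all 7 had negative values, and 3 had an unadjusted p under 0.05, against 6246 of 18588 genes. Mrc1, Lyve1, Pf4 and F13a1 were below WT without overlap at 4 months. The summed signal of these markers had a range of 10.5 to 11.3 in WT and 10.2 to 10.9 in rTg4510. Of 9 erythroid genes 4 were measured, of which Alas2 fell at 6 months, and sums ranged from 6.03 to 8.75 in WT and 4.74 to 7.83 in rTg4510. Dividing-cell markers rose in 4 of 6 genes at 4 months and fell in 5 of 6 at 6 months and 2 of 6 at 8 months, with sums of 6.35 to 7.24 in WT and 6.17 to 7.84 in rTg4510. Monocyte markers fell in 1 of 4 genes at 4 months and 3 of 4 at 6 months, with sums of 7.09 to 7.70 in WT and 6.53 to 7.98 in rTg4510. Of 5 endothelial genes Flt1 rose and Pecam1 fell from 4 months on, and Slco1c1 and Ly6c1 fell at 6 months as well. The median log2 fold change of the endothelial genes at 6 months was -1.03. None of 6 oligodendrocyte genes passed. Among 5 astrocyte genes Gfap rose and Aqp4 fell at 6 and 8 months, and Slc1a2 fell at 8 months. Of 2 measured neuronal genes Snap25 fell at 6 months. Prnp rose at 6 months, and Mapt passed at no age. Their part in the results for the iron genes was not tested. Libraries of the same group had r = 0.936 to 0.966 across genes, which are not independent replicates, and no pair of libraries held the same values.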

How the data were processed

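RNA from CD11b-bead microglia was sequenced after cDNA amplification. The authors summed exon reads per library, left out exons with low counts, took 1 signal per gene from a robust linear model over exons, and deposited log2 gene signals, median normalised, for 18588 Entrez genes in 32 libraries; build GRCm38 is in the submitters' processing notes, and aligner and gene annotation are not given in the sources used here. The study states 1 approximate number of reads for all samples, but the table holds no counts per gene or totals per library, so no counting interval was computed. Every column mapped to a sample (0 unused). RefSeq symbols were matched for 95.9% of IDs. limma 3.58.1 (R 4.3.3) fitted means for 8 groups to the 28 libraries the authors kept, with unmoderated variance (20 residual degrees of freedom), two-sided tests and Benjamini-Hochberg adjustment over all genes of a contrast. The model was checked on simulated data with 200 changed genes. Same-numbered libraries of both genotypes correlated in their deviations from group means by 0.06 to 0.17 at 2 months, -0.10 to 0.12 at 4, 0.13 to 0.15 at 6 and 0.15 to 0.29 at 8. For libraries of different number the ranges were -0.19 to 0.08, -0.07 to 0.15, -0.13 to 0.09 and -0.26 to -0.03. Neither the main fit nor the permutation test paired libraries. The replicate block paired same-numbered libraries at every age for the genotype contrasts. Ferritin copies were genes of RefSeq type pseudogene whose GENCODE M21 transcripts had at least 80% identity over 200 bases (BLAST 2.17.0), a rule chosen after the values were seen. The members and all lists were chosen with earlier results of these data known. Named genes are the 10 members, the wider-list DEGs of largest change (at most 6 per age), the 3 copies of highest signal and the 3 genes most like each member that is a DEG at 2 or more ages. Alternatives were moderated variance, a spread from the compared groups only, all 32 libraries, quantile normalisation, a filter below the 25th percentile of mean signal, a replicate block, and each library left out in turn.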

Additional observations from a re-analysis of the deposited data

Results flagged for a closer look

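The genotype effect differed between 4 and 2 months, by a test of the difference itself, for Fth1 (0.71 on the log2 scale), Slc40a1 (-0.59) and Slc11a1 (0.68). WT replicate 4 at 2 months, with a Slc11a1 signal of 6.71, stood apart from the other 3 WT libraries of that age by a gap that Dixon's test places past its 95% limit. That was 1 of 40 groups of 4 libraries tested, and chance gives about 1 in 20.

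The libraries excluded by the authors entered the fit with all 32 libraries and no other, and members called higher in rTg4510 were also above the WT libraries of the same age in some of them. In the excluded 4-month rTg4510 library the log2 signals were 12.83 for Ftl1, 13.71 for Fth1 and 7.29 for Slc11a1. Hmox1 (7.42) and Slc11a2 (4.23), not called at that age, were below the kept WT libraries there. The excluded 4-month WT library had 8.03 for Hmox1 and 5.36 for Slc11a2. In the excluded 8-month rTg4510 library they were 13.62 for Ftl1, 13.53 for Fth1, 8.63 for Hmox1, 7.97 for Slc11a1, 5.69 for Slc11a2 and 5.44 for Steap3. The excluded WT libraries had 11.44 (4 months) and 11.70 (8 months) for Fth1. The excluded 8-month WT library had 12.69 for Ftl1, 8.10 for Hmox1, 6.97 for Slc11a1, 4.93 for Slc11a2 and 4.30 for Steap3. That Steap3 value was above the 3.66 of kept rTg4510 replicate 1 at 8 months. These are values of 1 library each, with no test.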

How the results depend on the processing

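No call reversed, and each of the 7 members called at some age lost at least 1 call under some alternative or without some library. Slc11a1 and Slc40a1 lost only the call for the change between 2 and 4 months. The genotype calls of Fth1, Slc11a1 and Slc40a1 at 4, 6 and 8 months were kept in all 34 fits. So were those of Ftl1 at 6 and 8 months. For single members and contrasts under the 6 alternatives, 519 values kept their side of the threshold and 12 called values lost it, and with a library left out 2492 kept it, 21 lost and 7 gained a call; values without a call in either fit count as kept and are included in these numbers. Over all genes the DEG counts of the 4 ages in order (368, 2564, 3689 and 2950) became 244, 1561, 3166 and 1854 with the spread of the compared groups only, and 165 at 2 months with all 32 libraries. Of the members' counts, that of 8 months went from 7 to 4 with the spread of the compared groups, that of 2 months from 1 to 0 with quantile normalisation, and that of the change between 2 and 4 months from 3 to 1 with all 32 libraries. With a library left out, DEGs ranged from 280 to 477, 2242 to 2578, 3376 to 3711 and 2612 to 2962, and members called from 1 to 2, 4 to 5, 5 to 6 and 6 to 7 at the 4 ages, from 2 to 3 for the change between 2 and 4 months and from 4 to 6 for 8 against 2 months in rTg4510. The replicate block, with 10 residual degrees of freedom for the genotype contrasts, gave 376, 2553, 3712 and 2993 DEGs and 1, 4, 6 and 7 members. For 8 against 2 months the block model had 14 residual degrees of freedom. There 1 member's call changed, Hmox1 in rTg4510 (0.59, limma FDR 0.0881), where numbers do not mark the same animals. Steap3 lies below the 25th percentile and has no value under that filter. Slc40a1 lost its call for the change between 2 and 4 months, on size, without any 1 of 8 libraries (value from -0.67 to -0.53 over all 28). The cause of these changes was not tested. The table holds no counts, so the counting error of weak signals such as Steap3 was not computed.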
